A study of Rattus norvegicus with 6 samples.

Results

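Interferon-stimulated genes are the transcripts that cells switch on when they sense an interferon. The 9 examined here were Isg15, Irf7, Mx1, Mx2, Ifit2, Ifit3, Usp18, Rsad2 and Ly6e. They were chosen by gene symbol, with earlier results of these data known, out of 14506 genes measured in rat gastrocnemius muscle. For each symbol 1 transcript cluster was used. All 9 were on the array, each with a single transcript cluster, and no filter on dim genes was applied. The clusters, in that order, were 10882317, 10726758, 10753425, 10750524, 10714900, 10714903, 10858370, 10889399 and 10897054.

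The muscle came from male Sprague-Dawley rats made obese by diet, which began the diets at 12 weeks of age and were 20 weeks old at sampling. For 8 weeks every rat ate freely from a diet rich in fat and sucrose, of 4.6 kcal/g, in which protein supplied 10% of the energy. That protein was casein in the control diet, skim milk powder in the dairy diet, and casein (7.1% of energy) with free leucine (2.9%) in the leucine diet. The design names 4 rats per diet, and 2 arrays per diet were deposited, 6 in all. No lean or ordinary-chow group was analysed, so the controls were obese as well.

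Type I interferons bind the receptor pair IFNAR1 and IFNAR2, which signal through the kinases JAK1 and TYK2. The signal ends at the interferon-stimulated response element in the promoters of the target genes, where IRF9 takes part in binding. Irf7 is both a target and an amplifier, because its protein drives more interferon. Skeletal muscle fibres, resident macrophages and stromal cells can all respond to interferon, and in whole muscle fewer cells of a type and less RNA per cell cannot be told apart.

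RefSeq promoter windows (build GRCr8, 250 bases before to 50 after a gene start) were at hand for 4 of the 9 genes, Irf7, Mx1, Ifit3 and Rsad2. They were searched on both strands for the core of the response element, GAAA followed by any 2 bases and GAAA again, which reads TTTC, 2 bases, TTTC on the other strand. It was found in 3 of the 4 windows, and in 3.92% of all 33469 windows (1312). The sequences are shown because this element is the one through which interferon acts on such genes. Each is 30 bases on the gene's own strand, 5′ to 3′, with the match in capitals.
Irf7, chr1:205800073-205800102, minus strand: acagtttaggTTTCATTTTCccgagacgca
Ifit3, chr1:241527272-241527301, plus strand: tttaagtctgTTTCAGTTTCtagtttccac
Rsad2, chr6:48788248-48788277, minus strand: ctggttcaacTTTCATTTTCagaaaacaga
Counted from the start that the RefSeq window uses, the match began 69 bases before it in Irf7, 44 in Ifit3 and 147 in Rsad2. The outermost start annotated for the gene differs in Irf7, where the match lies 451 bases inside the gene, and in Rsad2, where it begins 22 bases before that start. All 3 ran in the reverse orientation, so the strand shown carries the complement. The Mx1 window held no match to these letters. A match is a string of letters and not a measured binding site. Among 49 other interferon-stimulated effector genes measured, 41 had a window and 25 of these held the motif (61.0%). For genes that process antigen for MHC class I it was 9 of 12 (75.0%). It was 2 of 5 for interferon ligands, 2 of 10 for nucleic acid sensors and 1 of 6 for negative regulators. No window held it among 7 genes of JAK, STAT and IRF signalling, 4 receptors and 3 genes of ISG15 conjugation.

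**Figure D1:**
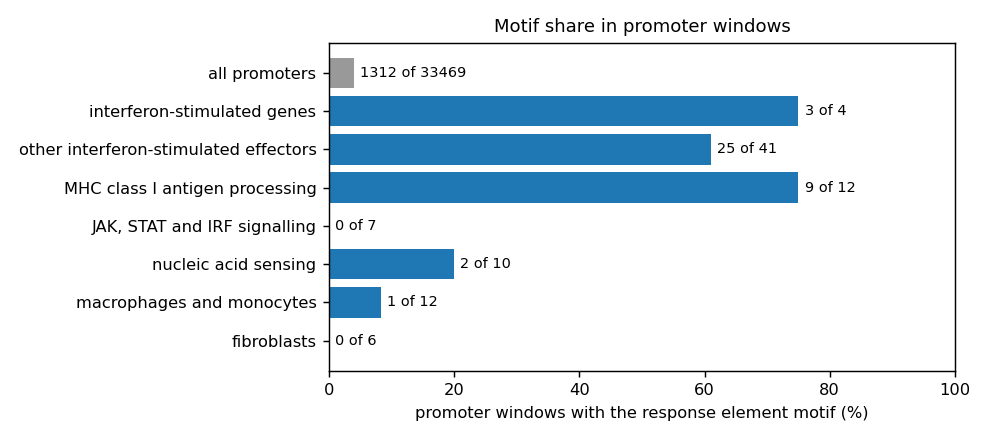
Bars give the percent of RefSeq promoter windows that hold the response element core on either strand, for all windows (grey) and for gene lists (blue), with the counts beside each bar. The interferon-stimulated genes (3 of 4), the other effectors (25 of 41) and the MHC class I genes (9 of 12) have the longest bars drawn, nucleic acid sensing (2 of 10) and macrophages (1 of 12) also exceed the 3.92% of all windows, and JAK, STAT and IRF signalling (0 of 7) and fibroblasts (0 of 6) have none.

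All values are log2 signals as deposited, so a difference of 1 is 2-fold. Array medians lay between 3.46 and 3.56. Fast-fibre transcripts, the defining set of this muscle, had mean levels of 12.2 to 12.6 on every array. Casein array 2 stood apart. Its mean correlation with the other arrays was 0.977, against 0.982 to 0.987 for the rest. Its slow-fibre markers averaged 6.19, where the other arrays gave 9.81 to 10.4, and its hepatocyte markers averaged 6.68, where they gave 3.37 to 5.28, the upper value on leucine array 2. Member results that involve casein, and the lists and genes where it matters, are therefore given with and without it. Nothing in the labels ties each array to a rat of its own, so p-values measure the spread between these samples only. Some of the 6 arrays shared an identical deposited value in 60.8% of genes, and in Irf7, Mx2, Ifit2 and Ly6e among the members.

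Isg15 encodes a ubiquitin-like protein that is attached to other proteins during an interferon response. It stood at 4.09 and 4.33 on the casein arrays, 4.25 and 3.87 on the dairy arrays, and 3.17 and 3.18 on the leucine arrays. Both leucine arrays lay below the other 4, and casein and dairy overlapped. The leucine values lay below the array medians, which is the dim end of the scale. Usp18, the protease that removes ISG15 and also restrains the interferon receptor, had another order. It stood at 2.49 and 2.44 with casein, 2.77 and 2.36 with dairy, and 2.96 and 2.63 with leucine. The leucine arrays lay above the casein arrays and overlapped with dairy, and every Usp18 value was below its array median.

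Ly6e, a lipid-anchored surface protein, was the member whose arrays agreed best. It read 7.05 on both casein arrays, 7.32 and 7.23 with dairy, and 6.38 and 6.15 with leucine. The 3 diets did not overlap, with dairy highest and leucine lowest. How many of all genes separate the 3 diets in this way was not counted. The casein values were identical as deposited, so casein added no spread of its own to the SE of Ly6e.

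Irf7, the transcription factor of the set, read 4.23 on both casein arrays, 4.75 and 4.23 with dairy, and 4.18 and 3.95 with leucine. Dairy array 1 was high, and leucine lay just below the other diets. Of the dynamin-like GTPases that block virus replication, Mx1 stood at 2.63 and 2.47 with casein, 3.36 and 2.36 with dairy, and 2.28 and 2.19 with leucine. It was below the array median on all 6 arrays, and dairy array 1 stood apart above the rest. Mx2 read 4.56 and 3.75 with casein, 4.90 and 3.92 with dairy, and 3.92 and 3.80 with leucine, so that the first array of casein and of dairy was high and all diets overlapped. The pair are related genes with 1 annotated gene between them in GRCr8, and how far the probes of either read the other is not known here.

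Rsad2 encodes viperin, a radical SAM enzyme that makes a chain-terminating nucleotide. Its values were 3.21 and 3.98 with casein, 4.54 and 3.37 with dairy, and 2.85 and 3.15 with leucine. Leucine was lowest on both arrays, while the casein and dairy arrays were spread over more than 2-fold. Ifit2 and Ifit3, which encode RNA-binding repeat proteins and lie next to each other in GRCr8 with 0 annotated genes between them, shared an order. Ifit2 read 4.87 and 5.95 with casein, 5.51 and 4.38 with dairy, and 4.87 on both leucine arrays. Ifit3 read 3.76 and 6.25 with casein, 4.65 and 3.42 with dairy, and 3.82 and 3.79 with leucine. In both, casein array 2 was highest, dairy array 1 second and dairy array 2 lowest. Ifit3 spanned 2.83 over the arrays, and its SD exceeded that of 99.3% of genes.

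**Figure D2:**
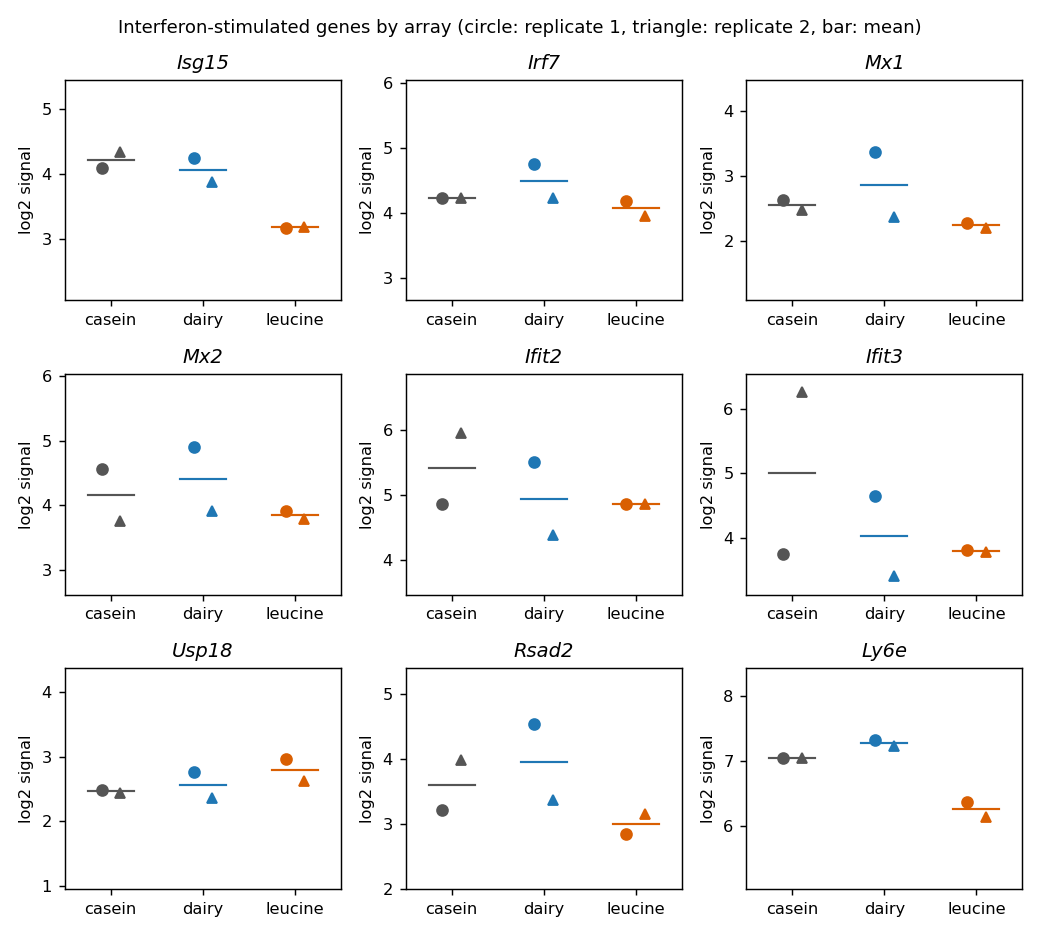
Each panel shows the log2 signal of 1 gene by diet on an axis of equal length, with a circle for replicate 1, a triangle for replicate 2 and a bar for the mean of the 2 arrays. Isg15, Irf7, Mx1, Rsad2 and Ly6e are lower on both leucine arrays than on any other array. Ifit3 reaches 6.25 on casein array 2, and dairy array 1 is the highest array for Irf7, Mx1, Mx2, Rsad2 and Ly6e.

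The members did not share 1 pattern. Dairy array 1 was the highest array for 5 of the 9 (15.9% of all genes were highest there), casein array 2 for 3 (Isg15, Ifit2 and Ifit3, against 21.5% of all genes) and leucine array 1 for Usp18. The mean of the 9 genes, each relative to its own mean, was 0.55 on dairy array 1 and 0.37 on casein array 2. On dairy array 2 it was −0.22, on casein array 1 it was −0.03, and on the leucine arrays it was −0.30 and −0.38. The leucine arrays lay close together, and the arrays of casein and of dairy lay far apart.

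The first comparison asked what changed when part of the casein was replaced by free leucine. Of the 9 genes 8 had a lower mean with leucine (49.1% of all genes did) and 1, Usp18, a higher one (48.5% of all genes). Their median log2 fold change was −0.54, where that of all genes was 0. The genes were chosen with earlier results of these data known, so such counts and medians describe them and test nothing. Isg15 had a log2 fold change of −1.03 ± 0.16 (SE, n = 2 against 2), or 2.05-fold lower, and Ly6e one of −0.78 ± 0.10, or 1.72-fold lower. Ifit3 had the largest, −1.20 ± 0.94, with overlapping arrays.

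By limma none of the members, and 0 of 14506 genes (0% called), passed an adjusted p of 0.05. Isg15 and Ly6e shared an adjusted p of 0.353, the lowest of any gene. Their unadjusted p were 0.00224 and 0.00101, at ranks 82 and 33 of all genes. They were the only 2 members with an unadjusted p under 0.05, which 1394 genes had (691 higher and 703 lower, or 4.85% lower). Isg15 and Ifit3 were the members over 2-fold lower (0.979% of all genes). The arrays of the diets did not overlap, with leucine lower, for 5 members, Isg15, Irf7, Mx1, Rsad2 and Ly6e (15.6% of all genes), and with leucine higher for Usp18 (15.9%). An exact two-sided permutation test of 2 arrays against 2 cannot go below p = 0.333. The difference for Irf7 was −0.16 ± 0.20, for Mx1 −0.32 ± 0.35, for Mx2 −0.30 ± 0.43, for Ifit2 −0.54 ± 0.53, for Rsad2 −0.59 ± 0.49 and for Usp18 0.33 ± 0.19.

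Without casein array 2 the differences between leucine and casein were smaller for Isg15, Ifit2, Ifit3 and Rsad2. For Ly6e the difference could not change, because its casein values were identical as deposited. Ly6e stayed at −0.78 ± 0.13 and Isg15 at −0.91 ± 0.19, with adjusted p by limma of 0.271 and 0.295. These remained the members with an unadjusted p under 0.05 in the lower direction, which 6.96% of genes then had. Ifit2 came to 0 and Ifit3 to 0.04 ± 0.63, so that their lower means with leucine rested on that array. Mx2 moved to −0.70 ± 0.50 and Rsad2 to −0.21 ± 0.61. Then 6 members were lower (47.4% of all genes) and 2 higher (47.4%), with a median of −0.21 against 0 for all genes.

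The second question was how skim milk powder compared with casein as the protein source. Of the 9 genes 6 had a higher mean with dairy (50.6% of all genes) and 3, Isg15, Ifit2 and Ifit3, a lower one (46.3%). The median was 0.23, against 0.00283 for all genes. Ly6e, at 0.23 ± 0.10 (SE, n = 2 against 2) or 1.17-fold higher, was the only member whose dairy arrays lay above both casein arrays (11.5% of all genes), and its adjusted p by limma was 0.833. The other 8 overlapped, and 0 of 14506 genes (0% called) passed, with a lowest adjusted p of 0.833. An unadjusted p under 0.05 was reached by 696 genes, none of them a member.

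These differences followed single arrays. Without dairy array 1 only 2 members were higher and 7 lower, with a median of −0.22, and Mx1, Mx2, Usp18 and Rsad2 changed sign. The share of all genes in each direction was not counted without that array. Without casein array 2, 7 were higher (47.7% of all genes) and 2 lower (45.3%). Ifit2 then stood at 0.07 ± 0.57 and Ifit3 at 0.27 ± 0.63, both from values below 0, and Mx2 moved from 0.25 ± 0.43 to −0.15 ± 0.50. Rsad2 moved from 0.36 to 0.75. For Isg15 the 95% interval of the difference between dairy and casein ran from −0.58 to 0.28, so a change of up to 0.58 in the lower direction lies within it.

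The third comparison set leucine against dairy, the pair that leaves out the casein arrays except for the shared estimate of spread. Of the 9 genes 8 were lower with leucine (48.5% of all genes) and Usp18 was higher (48.4%), with a median of −0.55 against 0. Ly6e was 2.02-fold lower, at −1.01 ± 0.10 (SE, n = 2 against 2), and only 82 genes (0.565%) were over 2-fold lower. Isg15 stood at −0.88 ± 0.16 and Rsad2 at −0.96 ± 0.49. Ifit2 at −0.07 ± 0.53 and Ifit3 at −0.23 ± 0.94 lay near 0.

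Ly6e ranked 4 of 14506 by p (0.000347) in this comparison and Isg15 ranked 103 (0.00415), both with an adjusted p of 0.514 by limma. That was the lowest of any gene, 0 genes passed (0% called), and 827 had an unadjusted p under 0.05, of which 500 were lower (3.45% of genes). The arrays did not overlap, with leucine lower, for Isg15, Irf7, Mx1, Rsad2 and Ly6e (14.9% of all genes). Without dairy array 1 the median was −0.13, with 6 lower and 3 higher, while Ly6e kept −0.97 and Isg15 −0.70. For that setting the share of all genes in each direction was not counted. The comparisons of leucine with casein and with dairy share the leucine arrays, so that their likeness is not independent evidence.

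**Figure D3:**
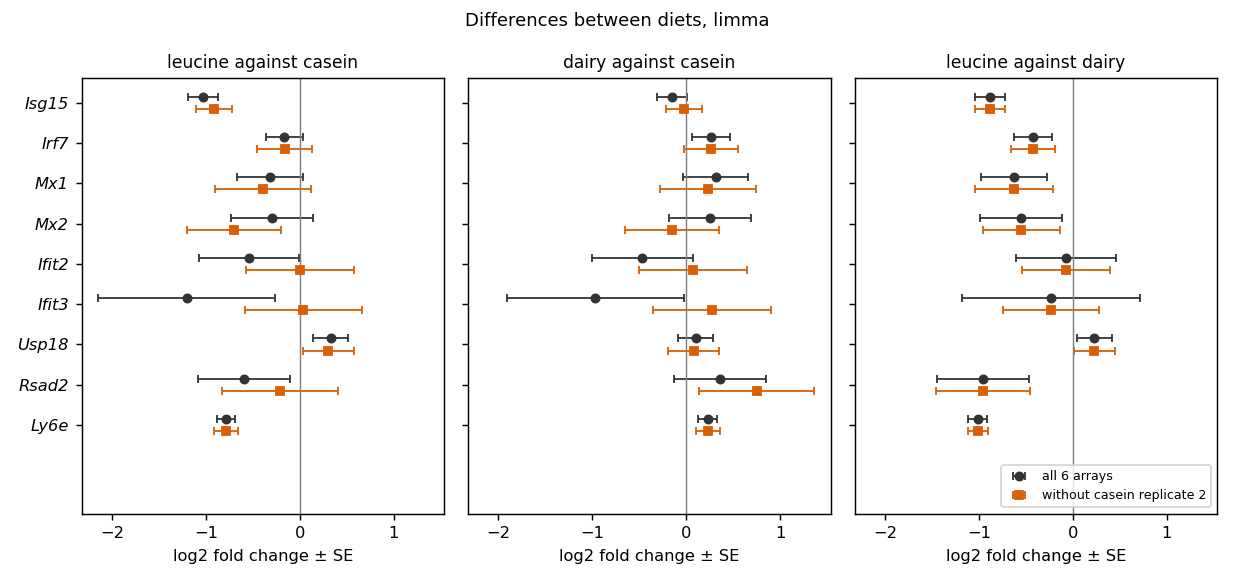
Points give the log2 fold change of each gene with its SE from limma in the 3 comparisons, from all 6 arrays (black circles) and without casein replicate 2 (orange squares). Ly6e and Isg15 lie left of 0 in both comparisons with leucine. The fold changes against dairy use no casein array, and the casein values of Ly6e are identical. Of these points only Isg15 against casein could therefore move when casein replicate 2 was left out, and it stays left of 0. Ifit2 and Ifit3 move to about 0 against casein without that array.

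The rest of the pathway was described from lists of other genes. Of the ligands, 5 were measured, with 1 or 2 above the array median, and Ifnb1, the gene of interferon beta, read 2.04 to 2.22 over the arrays. Their median difference between leucine and casein was 0.06, with or without casein array 2. The 4 receptor genes were lower with leucine, with a median of −0.10 (3 of 4 without casein array 2), among them Ifngr2 at −0.15 ± 0.10 and the shared chain Il10rb at −0.82 ± 0.50, or −0.12 without casein array 2. Ifnar1, the type I receptor chain, stood at −0.06 ± 0.14, or −0.21 without that array.

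In JAK, STAT and IRF signalling 7 of 9 genes were lower with leucine and 2 higher, with a median of −0.20, and 5 were lower without casein array 2 (median −0.10). Irf9, a DNA-binding factor of the interferon response, read 4.998 and 5.02 with casein, 5.50 and 5.02 with dairy, and 4.28 and 4.72 with leucine. Both leucine arrays lay below the other 4, as for Isg15, Irf7, Mx1, Rsad2 and Ly6e. Leucine arrays lay below both casein arrays in 15.6% of all genes, and below both dairy arrays in 14.9%. Irf9 was named because it had the smallest p for leucine against casein among the genes of its list above the median level. Its difference was −0.50 ± 0.23 from casein, with or without casein array 2 (−0.49), and −0.75 ± 0.23 from dairy, with adjusted p by limma of 0.590 and 0.781. Irf1 stood at −1.60 ± 0.94 and Jak2 at −0.38 ± 0.40, which without casein array 2 became −0.22 and 0.16.

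Nucleic acid sensors, which start interferon production, did not go lower as a group. Of 14 genes 8 were higher with leucine than with casein and 5 lower, with a median of 0.05 (7 and 6 without casein array 2). Tlr3, a receptor for double-stranded RNA, stood at 0.55 ± 0.14 and Mavs, the mitochondrial adaptor of the RNA sensors, at 0.55 ± 0.19, with adjusted p by limma of 0.413 and 0.482. Tbk1, the kinase downstream of them, stood at 0.22 ± 0.14. Without casein array 2 these were 0.56, 0.45 and 0.04.

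The enzymes that attach ISG15 were measured as 3 genes, and 3 of 3 were lower with leucine than with casein, with a median of −0.25 (−0.30 without casein array 2). The ligase Herc6 stood at −0.97 ± 0.45, or −0.50 without casein array 2, and the activating enzyme Uba7 at −0.06 ± 0.11, or −0.21 without it. Among 6 negative regulators 5 were lower and 1 higher, with a median of −0.23, and without casein array 2 it was 3 and 3. Socs3, an inhibitor of JAK kinases, stood at −2.37 ± 1.19 and at −0.61 without casein array 2, where it read 7.71 against 3.53 to 4.59 elsewhere. Pias1, a SUMO ligase, stood at 0.24 ± 0.15 and the DNA exonuclease Trex1 at −0.04 ± 0.09, and without casein array 2 they stood at 0.44 and 0.07.

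The other interferon-stimulated effectors were lower with leucine than with casein in 40 of 49 genes and higher in 9, with a median of −0.28 (−0.06 without casein array 2, with 34 lower and 14 higher). Of these 8 had an unadjusted p under 0.05 in the lower direction, where 4.85% of all genes had one, and 1 in the higher, and 0 passed over all genes. The 3 named here had the smallest p for leucine against casein of the 24 effectors above the median level. Slfn2, of the schlafen family, stood at −1.87 ± 0.33. Lgals3bp, a secreted glycoprotein that binds galectins, stood at −0.68 ± 0.13, and Adar, which edits adenosine in double-stranded RNA, at −0.54 ± 0.12. Their adjusted p by limma were 0.353, 0.353 and 0.387. Without casein array 2 the differences were −1.65, −0.68 and −0.52. Lgals3bp read 4.62 on both casein arrays, 4.95 and 4.87 with dairy, and 4.10 and 3.77 with leucine, the same order of diets as Ly6e. Against dairy 44 of the 49 were lower with leucine and 5 higher (median −0.20), and 35 were lower without dairy array 1. With dairy against casein 22 were higher and 26 lower, with a median of −0.01. Without casein array 2 that balance turned to 32 higher and 15 lower, with a median of 0.11.

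Genes of MHC class I antigen processing were lower with leucine than with casein in 10 of 12, with a median of −0.46, or −0.19 without casein array 2, again with 10 lower. Against dairy 11 of 12 were lower (median −0.17). Tapbp, the tapasin of the peptide-loading complex, stood at −0.49 ± 0.09 (−0.45 without that array) and the immunoproteasome subunit Psmb8 at −0.58 ± 0.20 (−0.43). The class I gene RT1-S3 stood at −0.64 ± 0.22 (−0.39). It belongs to a family of near-identical genes whose probes may pick up other copies. In all 8 lists 0 genes passed over all genes in any comparison.

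Markers of other cell types also differed between the arrays. Fibroblast markers were lower with leucine than with casein in 10 of 10 genes (median −0.71, and 9 of 10 without casein array 2) and lower than with dairy in 10 of 10 (median −1.34). Their mean level was 6.94 to 6.99 with casein, 7.05 to 7.63 with dairy and 6.05 to 6.12 with leucine, highest on dairy array 1 as were most members. Macrophage and monocyte markers were lower with leucine in 16 of 16 than with casein (median −0.59, and −0.17 with 10 lower without casein array 2) and in 16 of 16 than with dairy (median −0.67). Their mean level was 4.29 to 5.31 with casein, 4.78 to 4.84 with dairy and 4.16 to 4.20 with leucine. Hepatocyte markers were lower with leucine than with casein in 14 of 14 genes (median −1.22), and in 11 of 14 without casein array 2 (median −0.30). With dairy they were lower than with casein in 14 of 14, with that array (median −1.66) or without it (−0.75). They were higher with leucine than with dairy in 13 of 14 (median 0.48). Fast-fibre markers were lower with leucine than with casein in 10 of 11 genes (median −0.20), and in 11 of 11 without casein array 2 (median −0.29). They were lower than with dairy in 11 of 11 (median −0.29). Their mean level was 12.3 to 12.5 with casein, 12.4 to 12.6 with dairy and 12.2 with leucine, highest on dairy array 1. Slow-fibre markers were higher with leucine than with casein in 9 of 9 (median 2.18), and in 4 of 9 without casein array 2 (median −0.05). They were also higher with leucine than with dairy in 8 of 9 (median 0.36). Endothelial markers had medians of 0.25 against casein, 0 without casein array 2, and −0.11 against dairy.

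Lymphocyte and granulocyte markers were near the floor of the arrays, with 2 or 3 of 11 T and NK cell genes, 0 or 1 of 3 B cell genes and 0 or 1 of 8 neutrophil genes above the array median. Dendritic cell markers had 4 of 7 above it and a median of −0.05 between leucine and casein, or 0.04 without casein array 2. One of them, Bst2, is itself induced by interferon and also stands among the effectors. The part of fibroblasts, macrophages, hepatocyte or fibre-type RNA, or the other cells in the values of the interferon-stimulated genes was not tested.

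**Figure D4:**
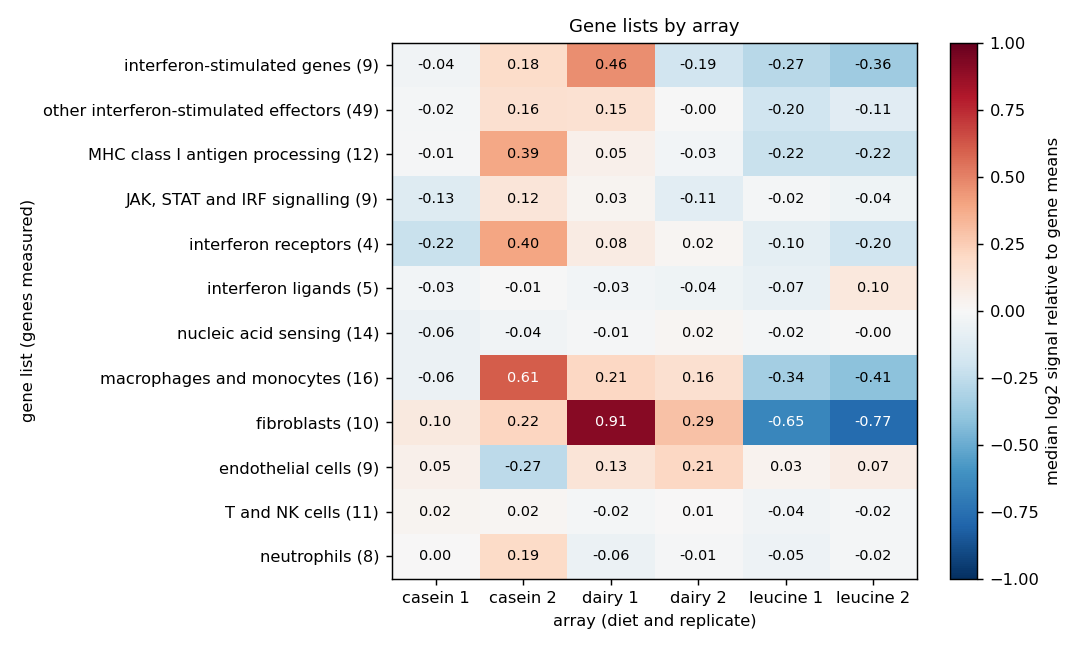
Each cell gives, for 1 gene list and 1 array, the median log2 signal of the list's genes relative to their means over the 6 arrays, with the number of genes measured in brackets. The interferon-stimulated genes are highest on dairy array 1 (0.46) and lowest on the leucine arrays (−0.27 and −0.36), and the fibroblast list has the same extremes (0.91, −0.65 and −0.77).

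Outside the interferon lists, 1760 genes lay above the median level with an SD of at least 0.3 over the arrays, and the 5 with the profile most like the mean of the members were Rnase4, Scarb1, C7, Gprc5c and Zfp521. Rnase4 is a secreted ribonuclease, Scarb1 the receptor for high-density lipoprotein, C7 a component of terminal complement, Gprc5c an orphan receptor and Zfp521 a zinc-finger factor. Likeness was Pearson's r over 6 arrays, between 0.953 and 0.983, and describes genes picked for it. Rnase4 read 5.60 and 5.91 with casein, 6.36 and 5.38 with dairy, and 5.20 and 5.04 with leucine. As in the mean of the members, dairy array 1 was highest and both leucine arrays lowest, an order that 4 of the 9 had singly (Irf7, Mx1, Rsad2 and Ly6e). The share of all genes with this order was not counted.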

How the data were processed

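Muscle RNA was labelled with biotin and hybridised to Affymetrix Rat Gene 1.0 ST arrays, per the labels' protocols. The deposited log2 values, 1 per array and transcript cluster, came from the authors' run of Affymetrix Expression Console, as named in the submitters' processing notes. The sources used here do not give the background correction, normalization or software version, and detection readings were not analysed. The labels name gastrocnemius, while the protocol texts also mention liver.

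Of 29214 clusters, 15310 had 1 gene in the platform annotation. The cluster with the highest mean was kept per symbol, which left 14506 genes. Rat symbols were updated through RefSeq gene tables (GRCr8). One linear model of diet over all genes was fitted with limma 3.58.1 in R 4.3.3 (3 residual degrees of freedom), with Benjamini-Hochberg adjustment and a threshold of 0.05. It was tested on simulated data. The number of arrays limits the precision.

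The members and gene lists were chosen with earlier results of these data known. All 9 members are named. Per pathway list up to 3 genes are named by rule, those with the smallest p for leucine against casein above the median level. Named outside this rule are Ifnb1, which lies below that level, Bst2, and the effectors singled out after their values were seen. To see whether equal replicate numbers mark pairs, the array 1 minus array 2 differences of the diets were correlated over genes. The correlations were 0.0865 for casein with dairy, 0.179 for casein with leucine and 0.0536 for dairy with leucine, not all above 0.1. They cannot decide whether arrays were paired or shared a batch, and casein array 2 enters those with casein. The labels give diet as the only factor, so the reported fit has no block. Alternatives were single arrays left out, quantile normalization, median centring, a filter on dim genes, pairwise fits, the replicate block, averaged clusters and a variance trend.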

Additional observations from a re-analysis of the deposited data

How the results depend on the processing

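Over 13 alternative settings the 9 genes gave 336 values. Of these, 320 kept the direction of the reported value and stayed on the same side of the threshold. The other 16 reversed or came to 0. Pairwise fits, the replicate block, the variance trend, averaged clusters and the filter on dim genes leave a member's fold change as it was. So does leaving out an array of the diet not compared. The count of 320 was therefore partly fixed in advance and does not measure how stable the results are. The lowest adjusted p of a member by limma was 0.147, for Isg15 with leucine against casein, and there Isg15 ranged up to 0.542 and Ly6e from 0.148 to 0.542. Their log2 fold changes ran from −1.16 to −0.91 and from −0.90 to −0.67.

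With single arrays left out, the median of the 9 genes ran from −0.78 to −0.21 for leucine against casein, from −0.22 to 0.30 for dairy against casein and from −1.04 to −0.13 for leucine against dairy. The value of −0.21 came without casein array 2, and those of −0.22 and −0.13 without dairy array 1. The cause was not tested. Genes past the threshold numbered 0 or 1 for leucine and for dairy against casein. The 1 gene, without casein array 1, was Il6, singled out after its values were seen, at 6.97 on casein array 2 and at most 2.40 elsewhere.

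Reversals came with single arrays left out. For leucine against casein the values ran from −0.70 to 0.10 for Mx2, −1.09 to 0 for Ifit2, −2.45 to 0.040 for Ifit3, −0.21 to 0.093 for Ifnar1, −0.92 to 0.16 for Jak2, −0.21 to 0.077 for Uba7 and −0.14 to 0.067 for Trex1. For dairy against casein they ran from −0.34 to 0.037 for Isg15, −0.19 to 0.81 for Mx1, −0.24 to 0.74 for Mx2, −1.03 to 0.10 for Ifit2, −2.21 to 0.27 for Ifit3, −0.10 to 0.30 for Usp18 and −0.22 to 0.95 for Rsad2. For leucine against dairy they ran from −0.64 to 0.49 for Ifit2 and −0.85 to 0.38 for Ifit3. Quantile normalization gave 0.011 for Uba7 with leucine against casein and 0.010 for Ifit2 with leucine against dairy, and median centring gave 0.0056 for Ifnar1 and 0.027 for Trex1 with leucine against casein.

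With the replicate number as a block 0 genes passed in each comparison, with lowest adjusted p by limma of 0.402, 0.783 and 0.694, and 1619, 848 and 961 genes had an unadjusted p under 0.05.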

Other observations

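Some of the interferon effectors differed between arrays of a diet more than the 9 genes did. They were singled out after their values were seen. Cxcl10, a chemokine that attracts T cells, read 3.78 and 7.72 on the casein arrays, 5.40 and 3.18 on the dairy arrays, and 3.08 and 3.33 on the leucine arrays. Gbp5, a guanylate-binding protein of the inflammasome, read 4.66 and 8.65 with casein, 6.06 and 4.30 with dairy, and 4.17 and 4.09 with leucine. Gbp2 read 4.22 and 7.50, then 5.25 and 4.06, then 3.74 and 3.82 in the same order. Cxcl9 read 3.99 and 7.70, 5.56 and 4.28, and 4.15 and 4.21.

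Casein array 2 was the highest and dairy array 1 the second for all 4, the order also seen in Isg15, Ifit2 and Ifit3 but not in the other 6 members. With leucine against casein their differences were −2.55, −2.52, −2.08 and −1.67, and without casein array 2 they were −0.58, −0.53, −0.45 and 0.19. None passed after adjustment by limma. The macrophage and monocyte markers were highest on the same casein array, with a mean level of 5.31, and their part in these values was not tested.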
